A study of Caenorhabditis elegans with 2 samples.

Results

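The nuclear hormone receptor genes are the 269 protein-coding genes of Caenorhabditis elegans whose name begins with nhr-, out of 19985 protein-coding genes in the WBcel235 annotation. The rule that picks the members uses the gene name and no measured value. At each gene the LIN-35 regions whose summit, the base of highest signal, lay within 1000 bp of the gene start were collected. Nuclear hormone receptors are transcription factors with a zinc-finger DNA-binding domain and, in most members, a ligand-binding domain for a small fat-soluble molecule. Nematodes carry an unusually large family, most of which is thought to descend from an HNF4-like ancestor, and many of its members have no known ligand. Members with known roles act in fat metabolism, molting, detoxification and development.

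LIN-35 is the C. elegans pocket protein of the retinoblastoma family. It has no DNA-binding domain of its own and reaches DNA in the DREAM complex, where EFL-1 with DPL-1 recognizes E2F-type sequences and LIN-54 recognizes the CHR element. DREAM is best known for repressing cell-cycle and germline genes.

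The data are chromatin immunoprecipitation followed by sequencing (ChIP-seq) of whole, mixed-sex young adults, the males and females pooled. The worms were of strain YL402, which carries unc119(ed3)III and the transgene vrIs56, which expresses a GFP- and FLAG-tagged LIN-35 from the pie-1 promoter and carries unc-119(+) as the rescue marker. The pie-1 promoter is known for germline expression, and the level of the fusion protein in the somatic tissues where many nhr genes act was not measured here. The antibody field names lin-35 and the epitope is not stated, so regions of the fusion protein and of any endogenous LIN-35 cannot be told apart. The 2 libraries, labelled biological replicates 2 and 3, form 1 group, so the design compares no conditions and the values below are descriptions with no test. Each library has a list of candidate regions, 20291 for replicate 2 and 30000 for replicate 3. A pooled list has 30000 candidate regions, and a short subset of these makes up the authors' list of reproducible peaks, called thresholded below because it was filtered by the irreproducible discovery rate. Each list was ranked by the authors' signal value, with rank 1 the strongest; its scale is not stated, so signals were not compared between lists. Ranks of a gene in the library lists are set side by side as a description, since those lists differ in length. Candidate lists hold background regions by design, so a low-ranked region is not read as binding. Read depth is unknown here.

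No nhr gene had a thresholded LIN-35 peak within 1000 bp of its start. The count was 0 of 269, with an exact Clopper-Pearson 95% interval reaching 1.36%. Among all protein-coding genes 505 had such a peak, a background of 2.53%. Of these 493 were nuclear genes and the rest mitochondrial, where 20 thresholded peaks lay. The positions and words of thresholded peaks given below include mitochondrial ones. The same number of highest-ranked regions was taken from each library as there are thresholded peaks. They reached 0 of the 269 nhr genes in replicate 2 and 0 in replicate 3, where the background was 2.28% in replicate 2 and 2.17% in replicate 3. Intervals here cover counting error only and treat genes as independent, although neighbouring genes can share a region.

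Thresholded peaks were uneven along the genome, and so was the nhr family. The family had 167 members (62.1%) on chromosome V, whereas 25% of all protein-coding genes lay there. Among other genes, 79 of 4827 on chromosome V (1.64%) and 3 of 2708 on chromosome X (0.111%) had a thresholded peak, against 4.18% on chromosome III. Weighting the other genes to the chromosomes of the nhr family gave a share of 1.98%, which lies above the upper limit for the nhr genes. On chromosome V alone the count was 0 of 167 nhr genes, beside 1.64% of other genes. No interval was computed there, so a low share is not claimed for that chromosome alone. The shares of other genes were highest on chromosomes I (4.10%) and III, which hold 23 and 8 nhr genes.

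Lower in the pooled and replicate 3 lists the nhr share came close to that of all genes, while in replicate 2 it stayed below. Among the 1000 highest-ranked pooled regions, 4 nhr genes (1.49%, interval 0.407% to 3.76%) had one, with a background of 5.09%, and the chromosome-weighted share of other genes was 4.06%. Among the 5000 highest-ranked, 31 nhr genes (11.5%, interval 7.97% to 16%) had one, with a background of 14.9% and a weighted share of 13.1%. Over the whole pooled list 141 nhr genes (52.4%, interval 46.3% to 58.5%) had a region, with a background of 53.0%. In replicate 2 the nhr count was 88 (32.7%, interval 27.1% to 38.7%), with a background of 40.1% and a weighted share of 37.8%. The interval lies below the background and holds the weighted share. In replicate 3 the nhr count was 139 (51.7%, interval 45.5% to 57.8%), with a background of 53.0% and a weighted share of 52.3%. Among the first 5000 regions of each library the nhr share was 7.81%, against 14.4% of all genes in replicate 2 and 13.1% in replicate 3.

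**Figure D1:**
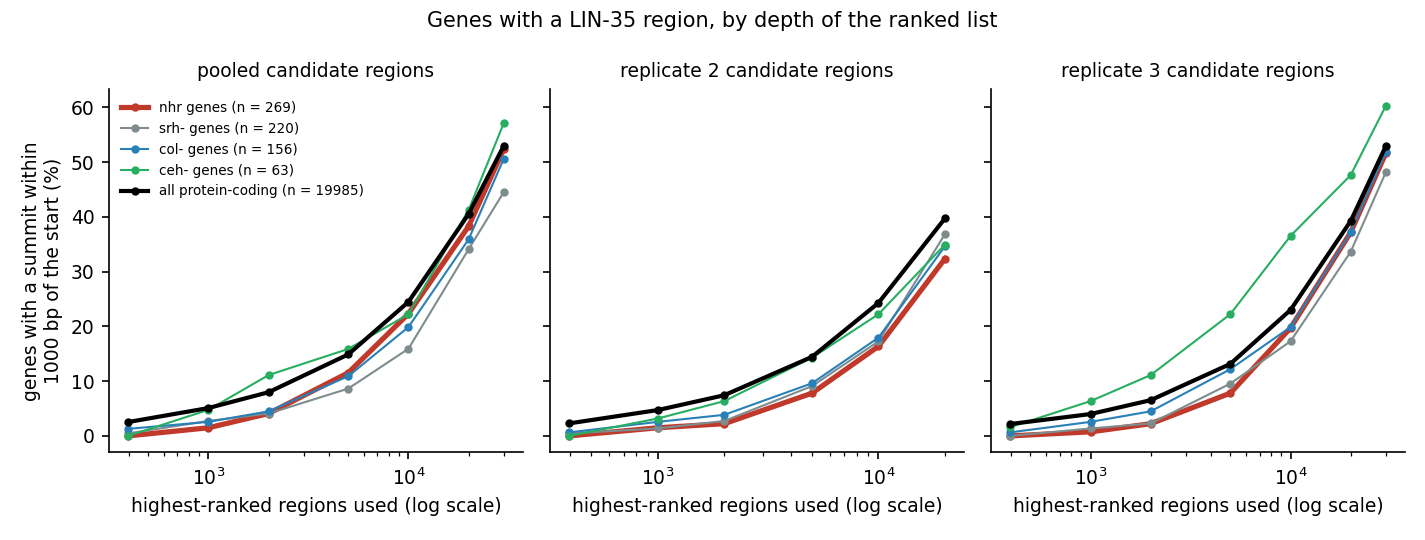
Share of genes with a summit within 1000 bp of the start (y axis, percent) against the number of highest-ranked regions used (x axis, log scale), for nhr genes and for the other groups named in the legend, with a panel for each list. The nhr line starts at 0 for as many regions as there are thresholded peaks and reaches 52.4% of genes over the whole pooled list.

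Other large gene families were set beside the nhr genes at the same ranks. Thresholded peaks lay near 0 of 269 nhr genes, near 0 of 63 ceh- homeobox genes, 2 of 156 col- collagen genes (1.28%) and 1 of 220 srh- chemoreceptor genes (0.455%). The share of all protein-coding genes was 2.53%. No interval was computed for the ceh-, col- and srh- families, which are smaller, so a low share is not claimed for them. Among the 1000 highest-ranked pooled regions the shares were 1.49% for nhr genes, 4.76% for ceh- genes, 2.56% for col- genes and 2.73% for srh- genes. All genes stood at 5.09% there. In the first 2000 the ceh- share was 11.1%, against 7.98% of all genes, 4.09% of nhr genes, 4.49% of col- genes and 4.09% of srh- genes. No test of these differences was made.

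The 4 nhr genes in the first 1000 pooled regions were nhr-98, nhr-47, nhr-142 and nhr-216, all on chromosome V. The bases around their summits are printed to show what lies under the strongest signal of the family. They were read from the RefSeq WBcel235 genome on the plus strand at chrV:454045-454074, chrV:5505243-5505272, chrV:5791071-5791100 and chrV:5359652-5359681, and the capital marks the summit base.
nhr-98: ttttgtgagctttatGgttgttgaaattag
nhr-47: cgtcagccgcaacttCgcttgccccattct
nhr-142: aggcggtttctggcgTgttttgcgggagct
nhr-216: tgctaattgtgagcaTtttttgaggcattc

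The region at nhr-98 (WBGene00003688, chrV:453912-454207) was the strongest of the family, with a pooled signal of 22.2 and rank 741. Its summit lay in an intron, 191 bp inside the gene. The weakest thresholded peak had a signal of 29.96, and 344 pooled regions ranked between that peak and this one. Its −log10 q was 3.22, the highest value in the pooled list. That value was shared by 829 pooled regions, which lay near 889 genes, and nhr-98 was the only nhr gene among them. The libraries differed at this gene. The replicate 2 region over the same site ranked 18636, and the best replicate 3 region, rank 8071, had its summit 173 bp upstream of the start and did not overlap the pooled region.

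At nhr-47 (WBGene00003637, chrV:5505110-5505405) the pooled signal was 20.5, rank 913, with the summit in the 5′ UTR, 5 bp inside the start. A region of each library overlapped it, at rank 5954 in replicate 2 and 20325 in replicate 3. The start of dnj-19, named as a DnaJ-domain chaperone gene, also lay within 1000 bp of this summit. At nhr-142 (WBGene00018430, chrV:5790938-5791233) the pooled signal was 20.2, rank 953, 533 bp upstream. Replicate 2 ranked the site 7249 and replicate 3 ranked it 899, and the start of F44E7.9 lay nearer, at 144 bp. At nhr-216 (WBGene00020385, chrV:5359519-5359814) the pooled signal was 20, rank 997, with the summit 795 bp upstream in intergenic sequence. Replicate 2 ranked this site 2220, while the replicate 3 region at nhr-216 lay elsewhere, at rank 29077. None of these 4 sites was ranked in the first 2000 by both libraries.

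The next 8 genes by pooled signal were nhr-112, nhr-227, nhr-5, nhr-13, nhr-117, nhr-256, nhr-136 and nhr-17. Their pooled signals ran from 18.9 at nhr-112 to 16.2 at nhr-17, and their ranks from 1225 to 2135. Among the 12 strongest, 10 lay on chromosome V, with nhr-5 on chromosome IV and nhr-17 on chromosome X. Only 3 of the 12 pooled regions, at nhr-47, nhr-142 and nhr-117, were overlapped by a region of both libraries. At 4 of the 12, nhr-5, nhr-13, nhr-136 and nhr-17, replicate 2 had no region within 1000 bp of the start, and at nhr-227 replicate 3 had none.

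The intergenic region 429 bp upstream of nhr-256 had the best replicate 2 rank of the family, 551 with a signal of 13.3, and pooled rank 1802. The replicate 3 region at that gene, rank 6881, lay elsewhere, 773 bp upstream. At nhr-13, a partner of the fat-metabolism receptor NHR-49, the summit lay 67 bp upstream of the start. Its replicate 3 rank was 1161, with a signal of 13.2, and its pooled rank was 1623.

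The 6 nhr genes ranked highest in one library were not those ranked highest in the other. In replicate 2 they were nhr-256, nhr-86, nhr-32, nhr-232, nhr-7 and nhr-243, with ranks from 551 to 1921. In replicate 3 they were nhr-128, nhr-142, nhr-134, nhr-13, nhr-30 and nhr-99, with ranks from 711 to 1698. At nhr-86, a receptor known to sense a bacterial metabolite, replicate 2 had a region at rank 622 with a signal of 12.6, 820 bp upstream, and neither replicate 3 nor the pooled list had one. At nhr-128 replicate 3 had rank 711 and a signal of 14.7, and replicate 2 had none. Of the replicate 3 genes, 5 had no replicate 2 region, nhr-142 being the exception.

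Among genes with a region in both libraries and in the first 2000 of either, the ranks lay farthest apart at nhr-32, nhr-256, nhr-243 and nhr-142. At nhr-32 the ranks were 723 in replicate 2 and 12129 in replicate 3, and the pooled rank was 15274. At nhr-243 they were 1921 in replicate 2 and 17616 in replicate 3. The ranks of nhr-142 and nhr-256 are given above, and at nhr-256 the libraries' regions lay at different sites. At nhr-32 too the best regions of the libraries did not overlap. Their summits lay 168 bp inside the start in replicate 2 and 137 bp upstream in replicate 3.

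**Figure D2:**
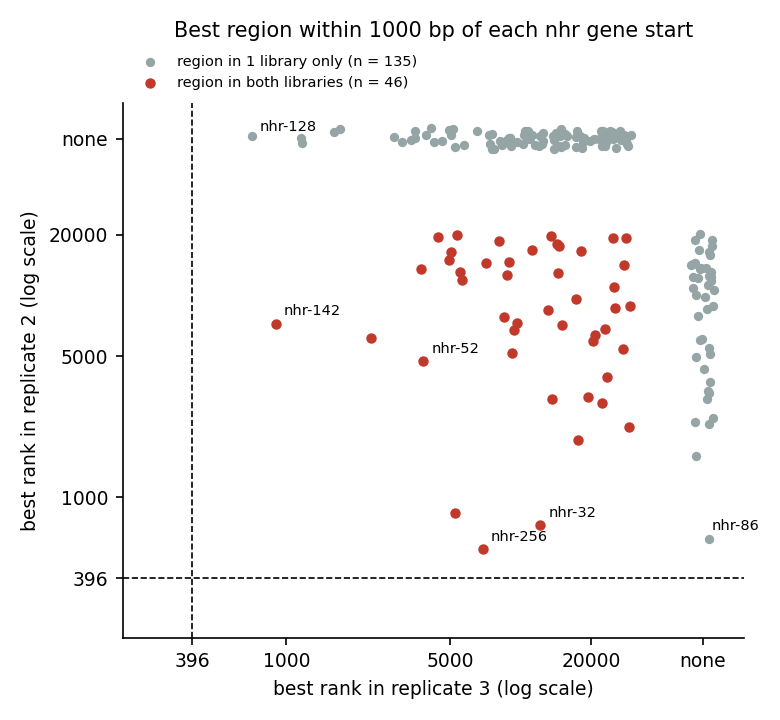
Best rank within 1000 bp of each nhr gene start in replicate 3 (x axis) and replicate 2 (y axis), both on log scales; red points have a region in both libraries (n = 46) and grey points in 1 library only, drawn at none on the other axis with a small random offset (n = 135), and dashed lines mark the length of the thresholded list. No red point lies within the first 2000 of both lists.

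The libraries shared few nhr genes. A region was found at 88 nhr genes in replicate 2 and 139 in replicate 3, and 46 had one in both, which is 52.3% of the replicate 2 genes and 33.1% of the replicate 3 genes. For other protein-coding genes the shares were 60.3% of the replicate 2 genes and 45.7% of the replicate 3 genes. The gap was wider among strong regions. Each library placed 6 nhr genes (2.23%) in its first 2000 regions, beside 7.43% of all genes in replicate 2 and 6.53% in replicate 3. Of these nhr genes 0 were shared. Other genes shared 532, which is 36% of the replicate 2 genes and 41% of the replicate 3 genes. In the first 5000 regions each library placed 21 nhr genes (7.81%), beside 14.4% of all genes in replicate 2 and 13.1% in replicate 3. Of these nhr genes 1 was shared (4.76% of each library's 21). Other genes shared 912 (31.8% of the replicate 2 genes and 35.0% of the replicate 3 genes). Other genes include the 505 with a thresholded peak, a list filtered for reproducibility, and nhr genes have none of these. Shares without those genes were not computed. In all, 73 nhr genes (27.1%) had no region in any candidate list, against 25.8% of other genes. A region in all 3 lists was found at 41 nhr genes (15.2%), against 20.9% of other genes.

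The shared gene was nhr-52 (WBGene00003642, chrV:15677235-15677530), named here for this overlap after its values were seen. Its replicate 2 rank was 4727 with a signal of 5.90, and its replicate 3 rank was 3827 with a signal of 10.1. The pooled rank was 6655 with a signal of 12, and the summit lay 139 bp upstream of the start. It was in the first 5000 of each library and yet outside the first 5000 of the pooled list.

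Single regions gave the same comparison. Of the 169 pooled regions at nhr genes, 18 (10.7%) were overlapped by a region of both libraries, 26 (15.4%) by replicate 2 only, 85 (50.3%) by replicate 3 only and 40 (23.7%) by neither. Of the 11649 pooled regions at other genes 19.3% were overlapped in both. Among pooled ranks 1 to 2000 the shares were 3 of 11 for nhr genes (27.3%) and 816 of 1216 for other genes (67.1%). At ranks 5001 to 10000 they were 7 of 30 (23.3%) for nhr genes and 20.5% for other genes, so the gap was not seen at every rank. Thresholded peaks are part of the first range for other genes and absent from it for nhr genes.

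Most of the 169 regions could be assigned to an nhr gene without ambiguity. The nearest protein-coding start belonged to an nhr gene for 159 (94.1%), and 149 (88.2%) had no start of a gene outside the family within 1000 bp. Within reach of a pair of nhr starts lay 3 regions. The strongest region within reach of a pair of nhr starts, named after its values were seen, had its summit 138 bp upstream of nhr-94 and 123 bp inside nhr-152 (chrV:7686325-7686620), with a pooled signal of 15 and rank 2953. Replicate 3 ranked it 7527 and replicate 2 had none.

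Where a region lay at an nhr gene, its summit was about as often inside the gene as upstream. Of 172 region-gene pairs, 79 (45.9%, interval 38.3% to 53.7%) had the summit upstream of the start. The share was 54.3% at other genes (7582 of 13966 pairs) and 88.9% for thresholded peaks (474 of 533). In the 250 bp just upstream, where promoter-bound factors are usually found, the shares were 9.30% at nhr genes, 17.0% at other genes and 48% for thresholded peaks. The median distance from summit to start was 522.5 bp at nhr genes, 457 bp at other genes and 245 bp for thresholded peaks.

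**Figure D3:**
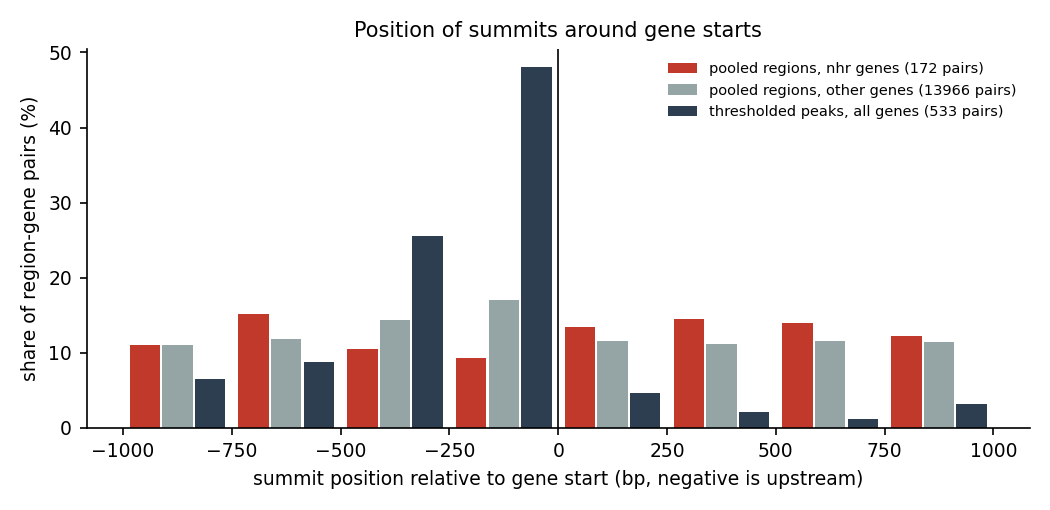
Share of region-gene pairs (y axis, percent) in bins of summit position relative to the gene start (x axis, bp, negative is upstream) for nhr genes, other protein-coding genes and thresholded peaks. The bin just upstream holds 9.30% of nhr pairs, 17.0% of pairs at other genes and 48% of thresholded pairs.

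By annotation, 60 of the 169 nhr regions (35.5%) had an intergenic summit, 50 (29.6%) a summit in a coding exon, 43 (25.4%) in an intron and 12 (7.10%) in a 5′ UTR. For regions at other genes the intergenic share was 39.98% and the coding-exon share 28.3%, and 84.1% of thresholded peaks near starts were intergenic. Among the 5000 highest-ranked regions the classes differed more. Of the 31 nhr regions 13 (41.9%) were in coding exons and 10 (32.3%) intergenic, against 20.8% in coding exons and 53.6% intergenic at other genes. The regions at other genes include the thresholded peaks near starts, and the nhr regions include none.

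E2F-type words were rare in nhr regions. The words searched within 100 bp of each summit, on both strands, were TTCCCGC or TTCGCGC or TTGCCGC or TTGGCGC. Of 169 nhr regions 5 held at least 1 (2.96%, interval 0.967% to 6.77%), against 1072 of 11649 regions at other genes (9.20%) and 182 of 353 thresholded peaks (51.6%). Among the 5000 highest-ranked regions 0 of 31 nhr regions held one (upper limit 11.2%), against 18.8% at other genes. Here and for the CHR words below, regions at other genes include the 353 thresholded peaks, and nhr regions include none. Shares without those peaks were not computed. The median GC content of the windows was 36.3% for nhr regions, 36.3% for other regions and 38.3% for thresholded peaks.

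The E2F words of nhr-48, nhr-79 and nhr-22 are printed in capitals within 30 bases each, beside those of the thresholded peaks at mys-1, cpg-2 and klp-18, which are 3 of the 7 thresholded peaks closest to nhr genes. The other 4, nearest to the starts of mppb-1, lgc-26, F57A10.2 and pid-5, held no such word within 100 bp of the summit. The RefSeq WBcel235 positions are chrX:15707533-15707562 (plus strand), chrV:19211114-19211143 (plus), chrII:6449809-6449838 (minus), chrV:7084953-7084982 (minus), chrIII:7104207-7104236 (plus) and chrIV:7039934-7039963 (minus).
nhr-48: gtgctgtgttgTTGCCGCtctcgtccatct
nhr-79: tttttcgtgtcTTGGCGCatttttcgtgag
nhr-22: tactctctaccaTTGCCGCacacctccatt
mys-1: ttcttttttgaaTTGCCGCcctttttccct
cpg-2: aaatttgaattTTCCCGCcggaggtcaaaa
klp-18: aaaaatcaaaatTTCGCGCctccgcggcgg

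The word at nhr-48, which encodes a relative of the vitamin D receptor, lay 17 bp from a summit of rank 9155. At nhr-79 and nhr-22 the word lay 49 bp from summits of rank 10280 and 12316. At mys-1, a MYST-family histone acetyltransferase gene, it lay 9 bp from a summit of rank 206. At cpg-2, which encodes an eggshell chondroitin proteoglycan, it lay 13 bp from a summit of rank 37, and at klp-18, a meiotic spindle kinesin gene, 2 bp from one of rank 108. The other nhr regions with a word were at nhr-2 and nhr-245. None of these words lay in a region of the first 5000.

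The CHR words, TTCGAA and TTTGAA on either strand, were common everywhere. They were found in 92 of 169 nhr regions (54.4%, interval 46.6% to 62.1%), 52.8% of regions at other genes and 72.8% of thresholded peaks. Among the 5000 highest-ranked regions they were found in 14 of 31 nhr regions (45.2%, interval 27.3% to 64%) and 56.2% of regions at other genes. These are 6-base words that match often without any factor being involved. Windows with both an E2F word and a CHR word, so also any overlap of the 2 kinds, numbered 0 at nhr genes, against 5.37% at other genes and 38.8% for thresholded peaks. The 4 of the 12 strongest nhr regions that held a CHR word are printed with it in capitals, from chrV:16724310-16724339 (minus strand), chrV:2284544-2284573 (plus), chrV:12107827-12107856 (minus) and chrX:12667565-12667594 (plus).
nhr-112: ttcctccgaattTTTGAActatctagatga
nhr-227: gctcaactttgcTTCGAAtatgttggcaaa
nhr-136: agtctgaaatggTTTGAAgtatatgatagg
nhr-17: aaaaatataacaTTTGAAatttgtttatga

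The words lay 85 bp, 88 bp, 55 bp and 25 bp from the summits, in that order. None of the 12 strongest nhr regions held an E2F word.

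**Figure D4:**
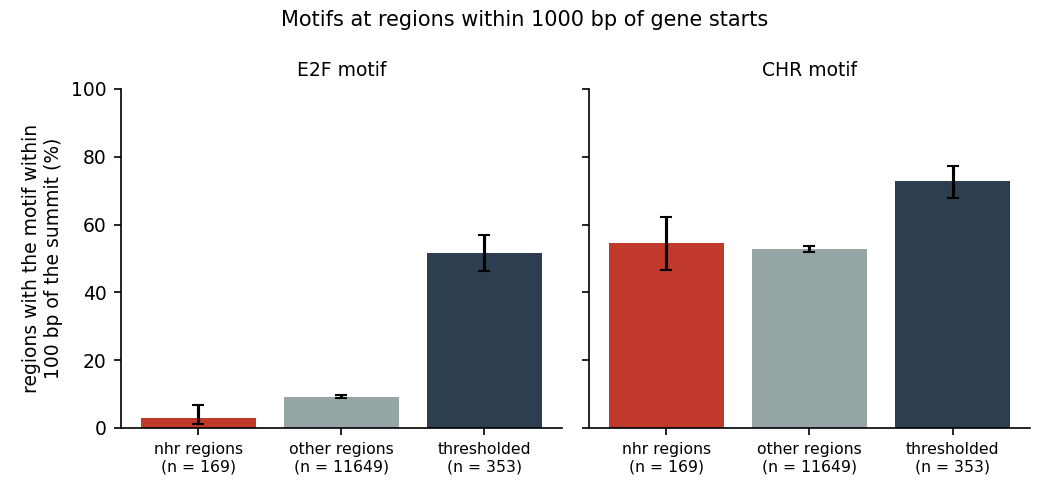
Share of regions (y axis, percent) with an E2F-type or CHR word within 100 bp of the summit for nhr regions, regions at other genes and thresholded peaks; bars are shares and error bars exact 95% intervals. E2F words are at 2.96%, 9.20% and 51.6%, and CHR words at 54.4%, 52.8% and 72.8%.

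The same words were counted in the 500 bases upstream of every gene start, whether or not a region lay there. An E2F word was present in 30 of 269 nhr promoters (11.2%, interval 7.65% to 15.5%), 15.2% of other promoters and 247 of 493 promoters with a thresholded peak (50.1%). On chromosome V alone the shares were 10.2% for nhr promoters and 13.7% for others. Of the 30 nhr genes with the word, 17 (56.7%) had a pooled region and 1 had one in the first 5000. The backgrounds over all protein-coding genes were 53.0% and 14.9%, so the share with a pooled region was near the background. The same shares among other genes with the word were not computed. CHR words were present in 85.1% of nhr promoters, 86.4% of other promoters and 92.3% of those with a thresholded peak.

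The nearest thresholded peak was far from most nhr genes. The median distance was 112.8 kb for nhr genes and 99.5 kb for other genes, and the shortest was 4381 bp for nhr genes and 3 bp for other genes. Within 10000 bp, 6 nhr genes (2.23%) had a thresholded peak, against 9.25% of other genes. On chromosome V the shares were 2.4% for nhr genes and 7.02% for others. The closest was nhr-11, whose nearest peak had a signal of 34.8 and lay 289 bp from the start of mppb-1, a mitochondrial processing peptidase gene. The peak near nhr-286 and nhr-135 lay 314 bp from the start of mys-1. The peak near nhr-9 and nhr-10 lay 244 bp from cpg-2 and that near nhr-105 lay 265 bp from klp-18. Apart from the peak near nhr-204, whose nearest start, that of lgc-26, was 3063 bp away, the peaks nearest to these genes lay close to the start of another gene.

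Receptors with known roles were examined by group. The lists were compiled with earlier results of these data known, so their counts are descriptions. Some genes stand in more than 1 list. No gene of these lists, nhr or not, had a thresholded peak within 1000 bp or a region in the first 1000 of the pooled list. Counts in the first 5000 below are also of the pooled list. Among the 9 conserved receptors 6 had a pooled region (66.7%) and 0 had one in the first 5000, beside backgrounds of 53.0% and 14.9%. The strongest was nhr-48, described with its E2F word, with a signal of 10.8. It was followed by nhr-6, the NR4A-type receptor needed for spermatheca development, with a signal of 10.6 and ranks of 9737 in the pooled list and 3551 in replicate 3. The molting regulator nhr-23 and the tailless-type nhr-67 had no region in any list. The SF-1-type nhr-25 had pooled rank 20289, the Rev-erb-type nhr-85 had 13893 and the GCNF-type nhr-91 had 27783. At nhr-41 only replicate 2 had a region, at rank 6073. For nhr-8, which acts in xenobiotic and cholesterol responses, the pooled rank was 24657, replicate 2 rank 19466 and replicate 3 rank 4460. The starts of emc-6, mrpl-1 and mrps-24 also lay within 1000 bp of its pooled summit.

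Of the 10 receptors of metabolism and diet, 8 (80%) had a pooled region and 1, nhr-13, had one in the first 5000. The backgrounds were 53.0% and 14.9%. At nhr-49, a regulator of fatty acid desaturation and oxidation, the pooled signal was 12.8 and the rank 5394, 291 bp upstream of the start. Replicate 2 ranked that site 3732 and replicate 3 had none. At nhr-64 the pooled signal was 12.5, rank 5738, 538 bp upstream, and replicate 3 ranked the site 2291, while the replicate 2 region, rank 6158, lay elsewhere. The propionate-shunt regulator nhr-68 had pooled rank 16265 and replicate 3 rank 13555, with a replicate 2 region at another site at rank 3083, and its partner nhr-10 had no region in any list. The NHR-49 partners nhr-80 and nhr-66 had pooled ranks of 15719 and 21700. The pooled summit at nhr-80 lay nearer to the start of H10E21.1, at 66 bp. For nhr-114, which protects the germline on a poor diet, the pooled rank was 21487, and nhr-76 had 21137, at a site that replicate 3 ranked 4930. At nhr-62, which acts in dietary restriction, only replicate 2 had a region, at rank 4943.

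Of the 6 receptors of stress and xenobiotic responses, 3 had a pooled region, beside a background of 53.0%. They were nhr-57, a hypoxia-response gene, at rank 14354, nhr-14, which acts in iron and immune responses, at 19738, and nhr-8. The other 3 were nhr-86, nhr-45 and nhr-176, the last 2 with no region in any list. Of the 9 developmental receptors, 5 of which also stand among the conserved ones, 5 had a pooled region (background 53.0%). The strongest was that of nhr-6, given above, followed by nhr-2, an early embryonic receptor, with a signal of 10.5, rank 10063 and a summit 110 bp upstream of the start. For nhr-40, a muscle regulator, the rank was 23132, and nhr-31 and nhr-60 had no region in any list.

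Receptors that do not carry the nhr- name were read as neighbours of the family. Of 6 such genes 5 had a pooled region (background 53.0%) and none was in the first 5000 (background 14.9%). The pooled ranks were 14108 for daf-12, the dafachronic acid receptor of the dauer decision, 16668 for unc-55, a motor neuron fate regulator, and 17034 for dpr-1. They were 19129 for sex-1, an X-chromosome signal element, and 29737 for the neuronal fax-1. The olfactory receptor-neuron factor odr-7 had no region in any list. The pooled summit at unc-55 lay nearer to the start of F55D12.6, at 536 bp.

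Of 8 genes for ligand synthesis and cofactors 5 had a pooled region, beside a background of 53.0%. The histone acetyltransferase and coactivator gene cbp-1 had a signal of 14 and rank 3857, 174 bp upstream, with rank 3485 in replicate 3 and 16905 in replicate 2. The Mediator subunit mdt-15, a coactivator of NHR-49, had rank 12184, the DAF-12 corepressor din-1 had 10932 and the NCoR-like gei-8 had 21693. The sterol-transport gene ncr-2 had 22524, and ncr-1 and the dafachronic acid synthesis genes daf-9 and daf-36 had none in any list. The pooled summit at mdt-15 lay nearer to the start of R12B2.13, at 563 bp.

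Of 8 metabolic target genes 5 had a pooled region (background 53.0%), with 2 in the first 5000 (background 14.9%). The stearoyl-CoA desaturase gene fat-6 had a signal of 19 and pooled rank 1194, in an intron 398 bp from its start, where replicate 2 ranked the site 859 and replicate 3 ranked it 7678. The best replicate 3 region at the gene, rank 6919, lay elsewhere, 883 bp from the start. The propionate-shunt gene hphd-1 had pooled rank 4279 and replicate 3 rank 3164. The acyl-CoA synthetase gene acs-2 had rank 6504, and the desaturase genes fat-7 and fat-5 had ranks 15865 and 28177. The propionate-shunt genes acdh-1 and hach-1 had only a replicate 2 region, at ranks 14872 and 6631, and the detoxification gene fmo-2 had none in any list.

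The family is clustered on chromosome V, so neighbours were examined together. In all, 126 nhr genes (46.8%) had another nhr start within 5000 bp, and 65 of them (51.6%) had a pooled region, against 76 of the other 143 (53.1%). Runs of 3 or more nhr genes with gaps of up to 30000 bp, a definition chosen after values were seen, numbered 24 and held 137 genes (50.9%). The largest run, from nhr-13 to nhr-226, spanned 102.4 kb with 19 nhr genes. A pooled region was found at 11 of the 19, a replicate 2 region at 5 and a replicate 3 region at 9, beside backgrounds of 53.0%, 40.1% and 53.0% in that order. In the first 5000, the pooled list held 3 of these genes, replicate 3 held 3 and replicate 2 held 0, where 14.9%, 13.1% and 14.4% of all genes had one, so the counts of 3 were near the background. The genes nhr-13, nhr-128 and nhr-134 were 3 of the 6 nhr genes ranked highest in replicate 3, lay within 38.7 kb of each other and had no replicate 2 region.

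**Figure D5:**
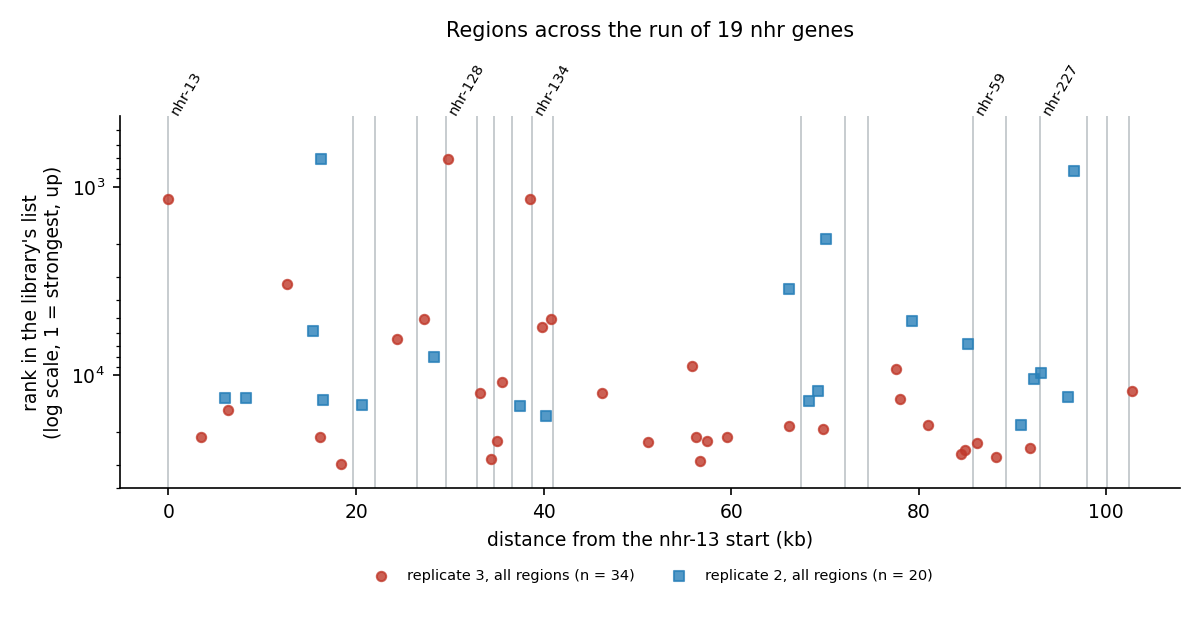
Regions of replicate 3 (red circles) and replicate 2 (blue squares) by rank (y axis, log scale, strongest at the top) along the run of 19 nhr genes (x axis, kb from the nhr-13 start), with grey lines at nhr starts and 5 of them named. The strongest replicate 3 regions stand at nhr-13, nhr-128 and nhr-134, where replicate 2 has no region, and the replicate 2 regions of similar rank lie elsewhere.

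The number of candidate regions in this run was close to that of the chromosome. It was 29.7 per 100 kb in the pooled list, 19.2 in replicate 2 and 32.6 in replicate 3, against 29, 19 and 29.5 over chromosome V, in the same order. The best replicate 2 rank within it, 710, was at no nhr start.

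Position along the genome also differed within the family. In the first 5000 pooled regions chromosome V held 25 of the 31 nhr genes (15% of its nhr genes, against 11.8% of its other genes). The 46 nhr genes on chromosomes I, II and III had 0 (upper limit 7.71%), against 18.1% of the other genes there. Within chromosome V the 4 genes of the first 1000 were all in the left of 3 equal stretches, and in the first 5000 the shares were 16.7% of nhr genes in the left stretch, 24.4% in the middle and 4.17% in the right, against 11.4%, 12.9% and 11.0% of other genes. These splits were made after values were seen, rest on 13, 10 and 2 nhr genes, and were not tested.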

How the data were processed

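Regions were deposited in narrowPeak format on ce11 (WBcel235). Candidate regions were called for each library and for both pooled, with a control alignment, then thresholded, according to text files deposited beside them. Aligner, caller and threshold: not given in the sources used here. The authors' signal (column 7) and −log10 q-value (column 9) were used as deposited. All thresholded peaks were identical to pooled regions. Lists on the other build, and any read counts, were not used here.

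Gene starts came from the Ensembl release 115 WBcel235 annotation, and sequences from the RefSeq genome of the same build. Every summit within 1000 bp of a start counted, and ties to several genes were kept. Overlap meant at least 1 bp. Words were searched within 100 bp of summits. Python 3.11.15 (pandas 2.3.3, scipy 1.17.1) and bedtools 2.31.1 were used. The word search was tested on simulated sequences, and the summit-to-start search was checked against bedtools on the region lists themselves. Genes named were the 12 with the highest pooled signal, the 6 highest of each library, the 4 largest rank gaps and all genes of the lists. The labels' biological replicates are 2 libraries, so their spread was not estimated beyond both values. The members and lists were chosen with earlier results of these data known. Alternatives changed the distance, the start definition, the list depth, the library and the word window.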

Additional observations from a re-analysis of the deposited data

How the results depend on the processing

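The count of nhr genes with a thresholded peak was 0 under all 8 alternatives: 500 bp, 250 bp, nearest gene only, any transcript start, the stronger-signal part of the thresholded peaks, any overlap, and the same number of strongest regions from either library alone. At 500 bp the pooled count was 78 and at 250 bp 40 (all genes 34.4% and 19.7%). Replicate 2 gave 52 and 23 at those distances (all genes 25.6% and 14.6%), and replicate 3 gave 86 and 50 (33.6% and 19.1%). The 10000 highest-ranked pooled regions gave 60 (all genes 24.5%). Only pooled regions overlapped in both libraries, an alternative chosen after seeing the data, gave 18 (all genes 13.1%). Among the 1000 highest-ranked, 500 bp and 250 bp each gave 2 nhr genes (all genes 3.84% and 2.58%). The 1000 highest-ranked of replicate 3 alone gave 2 (all genes 3.99%), and those of replicate 2 alone gave 4 (all genes 4.72%). Windows of 150 bp raised the E2F share to 7.10% (others 11.8%) and the CHR share to 69.8% (others 66.8%), and 50 bp gave a CHR share of 33.7% (others 32%). No paired analysis was possible because the libraries form 1 group. Unknown read depth limits all counts.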
